A study of Mus musculus with 16 samples.

Results

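The genes described here encode the Fc receptors for IgE and IgG of bone marrow-derived mast cells (BMMCs): Fcer1a, Ms4a2, Fcer1g, Fcgr3, Fcgr2b, Fcgr4 and Fcgr1. They were chosen as a gene family, by name, and all 7 were found among the 39179 genes counted per sample. BMMCs were grown for 4 weeks with stem cell factor and IL3 from the marrow of male C57BL/6 mice aged 8 to 10 weeks, either PEP+/+ (wild type) or PEP-/- (without the phosphatase PEP, the product of Ptpn22). Each genotype was given IgE at 0.05 µg/ml for 3 h, alone (IgE), with the antigen dinitrophenol on albumin at 200 ng/ml for 1 h (IgE DNP), with dexamethasone at 100 nM for 8 h (IgE DEX), or with both (IgE DNP DEX). The dose of IgE is that of the labels, and the study's text gives a higher one. Every group received IgE, so no sample shows the receptors without it. Each of the 8 conditions had 2 replicates, 16 samples in all, and the number of mice behind each sample is not given in the sources used here, so p-values measure only the spread between these samples.

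FcεRI, the high-affinity receptor that holds IgE on the mast cell, is built from an IgE-binding alpha chain (Fcer1a), a beta chain that amplifies its signal (Ms4a2) and a gamma chain that carries most of the signal (Fcer1g). Antigen that cross-links the bound IgE activates the kinases Lyn and Syk and so starts degranulation and cytokine production. The gamma chain also serves the activating IgG receptors FcγRIII (Fcgr3), FcγRIV (Fcgr4) and FcγRI (Fcgr1), whereas FcγRIIB (Fcgr2b) carries an inhibitory motif that recruits the phosphatase SHIP-1 and restrains activation.

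On GRCm38, 5 of the genes lie on chromosome 1. Fcgr2b (ENSMUSG00000026656) spans 170958617 to 170976547 and Fcgr3 (ENSMUSG00000059498) spans 171051174 to 171064935, both on the minus strand, with Fcgr4 (ENSMUSG00000059089, 171018920 to 171029761, plus strand) between them. Fcer1g (ENSMUSG00000058715, 171229572 to 171234365) and Fcer1a (ENSMUSG00000005339, 173221284 to 173227214) follow on the minus strand. Ms4a2 (ENSMUSG00000024680) lies on chromosome 19 from 11615523 to 11623719 and Fcgr1 (ENSMUSG00000015947) on chromosome 3 from 96282909 to 96293969, both on the minus strand. Of the stretches of 50 bases in the transcripts of Fcgr3, 9.58% also occur in Fcgr2b. Of those of Fcgr2b, 6.95% also occur in Fcgr3 or in other genes. The study sequenced paired ends of 50 bases, so a pair with both ends in such stretches might not be assigned to a single gene. How many pairs this affected was not tested, and these levels are the more uncertain ones. The antisense gene Gm38204 overlaps Fcgr2b, and whether reads were counted by strand is not given in the sources used here.

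Upstream sequences are shown for the alpha and beta chains of FcεRI and for Fcgr3 and Fcgr2b. The ratio of these 2 IgG receptors differed with DEX and with genotype. The sequences are the 250 bases before the RefSeq start of each gene on GRCm38.p6, written 5′ to 3′ on the minus strand. Capitals mark GATA on either strand (core of the GATA factor motif) and ACANNNTGT (core of the glucocorticoid receptor motif). Upstream here means before that RefSeq start. The windows of Fcgr3 and Fcgr2b lie inside the gene spans given above, which reach 171064935 and 170976547.
Fcer1a, chr1:173227230-173227479: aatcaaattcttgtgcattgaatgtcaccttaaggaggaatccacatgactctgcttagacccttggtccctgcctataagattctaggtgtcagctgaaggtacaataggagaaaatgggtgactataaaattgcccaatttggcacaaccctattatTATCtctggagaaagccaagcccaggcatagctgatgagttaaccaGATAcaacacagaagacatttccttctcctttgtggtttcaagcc
Ms4a2, chr19:11623720-11623969: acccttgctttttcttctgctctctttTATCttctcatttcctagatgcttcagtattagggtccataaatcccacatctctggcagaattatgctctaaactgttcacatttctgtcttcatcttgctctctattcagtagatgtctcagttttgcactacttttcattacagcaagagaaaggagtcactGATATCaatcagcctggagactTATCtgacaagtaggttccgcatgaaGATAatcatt
Fcgr3, chr1:171059395-171059644: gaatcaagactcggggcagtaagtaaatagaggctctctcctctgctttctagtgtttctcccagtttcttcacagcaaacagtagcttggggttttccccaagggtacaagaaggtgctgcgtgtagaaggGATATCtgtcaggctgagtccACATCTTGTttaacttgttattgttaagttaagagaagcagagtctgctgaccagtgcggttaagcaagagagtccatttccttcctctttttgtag
Fcgr2b, chr1:170976072-170976321: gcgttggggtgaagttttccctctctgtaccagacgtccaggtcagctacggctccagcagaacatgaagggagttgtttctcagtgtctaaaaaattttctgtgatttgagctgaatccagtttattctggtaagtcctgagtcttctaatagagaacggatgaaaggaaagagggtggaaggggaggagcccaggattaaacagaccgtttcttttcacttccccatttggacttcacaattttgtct
Counting overlaps and both strands, GATA stood at 2 places upstream of Fcer1a (first bases at -91 and -45 from the start) and at 5 upstream of Ms4a2. It stood at 2 upstream of Fcgr3 and at 0 upstream of Fcgr2b. In the windows not shown it stood at 1 place for Fcer1g, 3 for Fcgr4 and 1 for Fcgr1. Of 32817 mouse promoters of this length, 53.6% held at least 1. ACANNNTGT occurred at -97 upstream of Fcgr3 and in none of the other 6 windows, against 5.84% of all promoters. Fcgr3 has a further RefSeq start nearby, and its window holds the same matches. Such matches describe the letters in these windows and are not evidence of binding.

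Sample depth, taken as the sum of reads on genes, ran from 8612531 to 22143526 (median 12814043.5). The targets of the labelled factors followed the labels. Ptpn22 stood at 11.3 to 175 reads per 1000000 reads on genes, scaled by TMM (CPM), in PEP+/+ and at 0 to 3.03 CPM in PEP-/-, the glucocorticoid target Tsc22d3 at 725 to 1277 CPM with DEX and 43.9 to 134 CPM without, and Tnf at 156 to 464 CPM after IgE DNP and 0.566 to 1.82 CPM after IgE. The 12 mast cell markers looked at, such as Cpa3 and Kit, summed to 64743 to 105180 CPM over the 16 samples. The sum was 64743 to 73740 CPM after IgE and 75320 to 90617 after IgE DNP. It was 69078 to 79029 CPM after IgE DEX and 82859 to 105180 after IgE DNP DEX, and its part in the receptor values was not tested. Markers of neutrophils (9 genes), dendritic cells (7) and B and T cells (6) summed to at most 2.46, 3.49 and 0.715 CPM. The 4 basophil markers counted summed to 1931 to 3406 CPM after IgE, 3357 to 5813 after IgE DNP, 541 to 1224 after IgE DEX and 1375 to 2222 after IgE DNP DEX. Most of the sum was Gzmb (272 to 5063 CPM) and Cd200r3 (198 to 837 CPM), which are also made by BMMCs. Mcpt8 and Prss34 reached at most 62.8 and 59.4 CPM, with ranges that overlap between the treatments. The part of these 4 markers in the receptor values was not tested. In bulk RNA, fewer cells of a type and less RNA per cell cannot be told apart.

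The 7 receptor genes spanned a wide range of levels, from a gene among the most abundant of the cell to one at the limit of detection. Per kilobase of exon, Fcer1a had a median of 7651 CPM per kb (6528 to 12643 over the 16 samples), Fcer1g 622, Ms4a2 202, Fcgr3 30.3, Fcgr2b 9.73, Fcgr1 0.091 and Fcgr4 0. Each gene lay above the next in all 16 samples, with ranges that did not overlap, except that Fcgr1 and Fcgr4 overlapped. The alpha chain alone took 0.599 to 1.13% of all counted reads, between rank 4 and rank 9 of all genes, and its level per kb exceeded that of the beta chain in every sample. The reads behind these values numbered 58794 to 199184 per sample for Fcer1a and 3060 to 13462 for Ms4a2, so counting error was small for the IgE receptor. Fcgr1 and Fcgr4 had too few reads to pass the filter on low counts, which left 5 of the 7 genes among the 13305 tested.

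**Figure D1:**
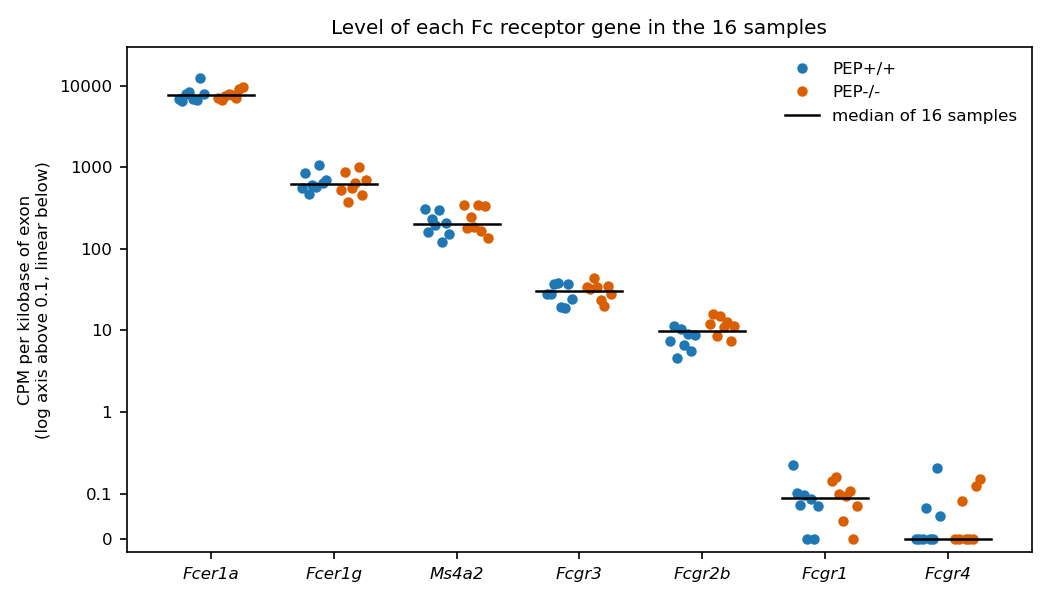
Level of each of the 7 receptor genes in CPM per kilobase of exon (vertical axis, logarithmic above 0.1 and linear below), with 1 point per sample coloured by genotype and a bar at the median of 16 samples. Fcer1a lay highest and Fcgr4 lowest, and only Fcgr1 and Fcgr4 overlapped.

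The samples form 2 sets in the labels, numbered (replicate 1) and lettered (replicate 2), and the sets differed in the receptor genes as well. Ms4a2 was lower in the lettered sample of all 8 conditions, by 0.83 on the log2 scale on average (-1.33 to -0.27), and Fcer1g and Fcgr2b were higher in it in all 8, by 0.57 and 0.61. Over all genes tested, 38.2% had the same sign in all 8 conditions. Fcer1a differed by -0.09 on average (-0.65 to 0.08) and was lower in the lettered sample in 5 of 8 conditions, and Fcgr3 by -0.19 (-0.59 to 0.06), lower in 6 of 8. Tests are therefore given without the replicate set and, where the call changed, with the set as a term (the replicate block), and the labels do not say whether a set was cultured or sequenced together.

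**Figure D2:**
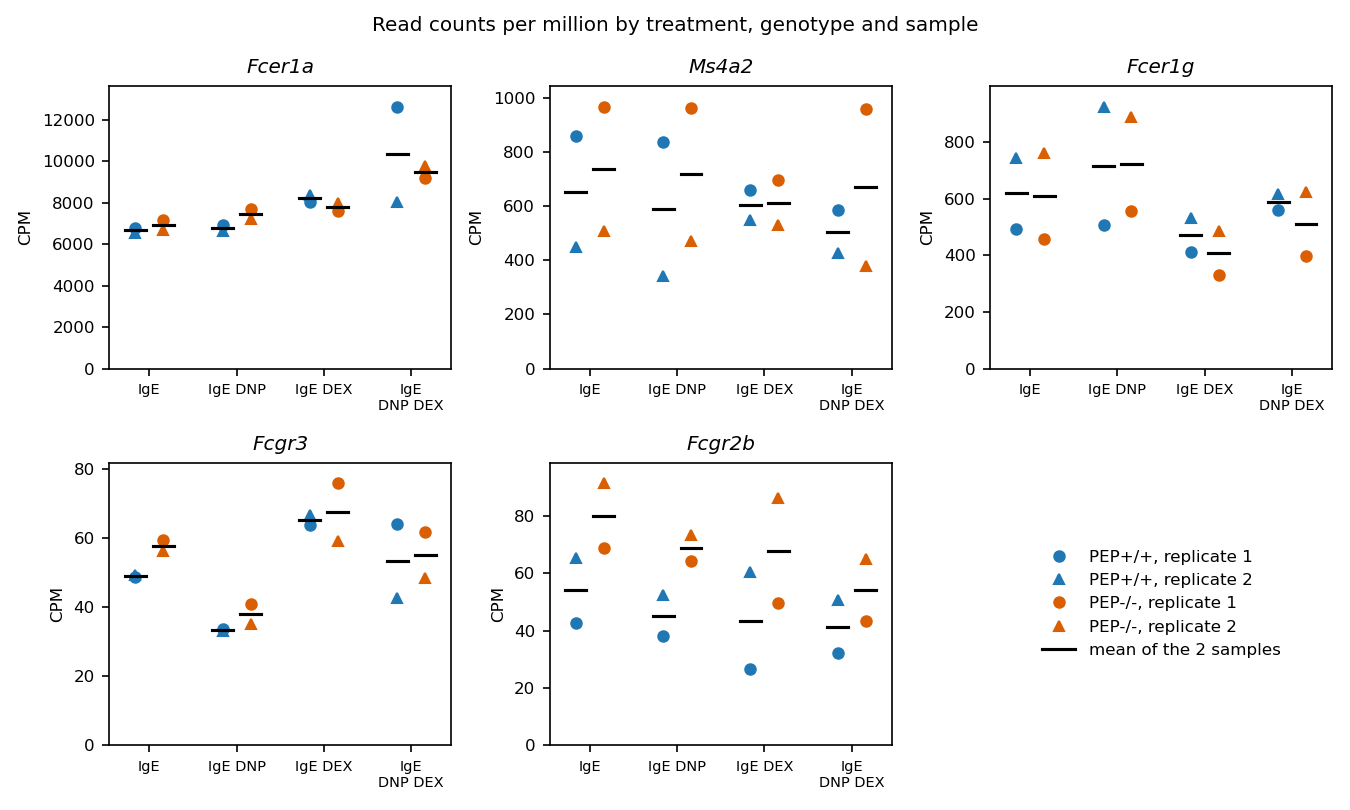
CPM (vertical axes, from 0) of the 5 tested receptor genes by treatment, with 1 point per sample, colour for the genotype, circles for replicate 1, triangles for replicate 2 and a bar at the mean of the 2 samples. Fcgr3 lay lowest after IgE DNP (33.1 to 40.7 CPM), and for Ms4a2 the circles lie above the triangles in each condition and genotype.

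Antigen lowered the activating low-affinity IgG receptor Fcgr3 when DEX was absent, and no chain of the IgE receptor passed the test. In replicates 1 and 2, Fcgr3 stood at 48.6 and 49.1 CPM after IgE and at 33.6 and 33.1 CPM after IgE DNP in PEP+/+. In PEP-/- it stood at 59.3 and 56.1 CPM after IgE and at 40.7 and 34.9 CPM after IgE DNP. All 4 samples with antigen lay below all 4 without it. The change was -0.58 ± 0.15 on the log2 scale (SE), a fall to 0.669 of the IgE level, with an adjusted p of 0.0243 in edgeR. Within the numbered samples alone the difference was -0.54, and within the lettered ones -0.62. Fcgr3 was the 1 receptor gene called in this comparison, in which 16.7% of all genes tested were called, and with the replicate block it was again the 1 called, against 37.9% of all genes. Without the block the call was lost on leaving out PEP+/+ IgE replicate 1 or 2, PEP+/+ IgE DNP replicate 1 or 2, PEP-/- IgE replicate 1 or 2, or PEP-/- IgE DNP replicate 2, at adjusted p of 0.0541 to 0.0902 in edgeR, whereas with the block it held in all 16 such fits (0.00621 at the most).

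The chains of FcεRI did not pass the test for antigen alone. Fcer1a, the IgE-binding chain, stood at 6800 and 6515 CPM after IgE and at 6923 and 6615 CPM after IgE DNP in PEP+/+, and at 7150 and 6676 against 7673 and 7192 CPM in PEP-/-. Its log2 change was 0.06 ± 0.15, with groups that overlap. Fcer1g, the signalling gamma chain, stood at 494 and 745 CPM after IgE and at 506 and 924 CPM after IgE DNP in PEP+/+, and at 457 and 760 against 557 and 887 CPM in PEP-/-. Each sample with antigen lay above its counterpart of the same set, but the log2 change of 0.23 ± 0.27 had an adjusted p of 0.696 in edgeR, and 0.149 with the replicate block. The beta chain Ms4a2 changed by -0.09 ± 0.39 and the inhibitory receptor Fcgr2b by -0.24 ± 0.30 on the log2 scale, neither of them called. The median over the 5 genes was -0.09 on the log2 scale, against -0.00 over all genes.

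With dexamethasone, Fcgr3 rose when antigen was present, and with the replicate block Fcer1a rose and Fcer1g fell. After IgE DEX, Fcgr3 stood at 63.8 and 66.5 CPM in PEP+/+ and at 75.7 and 58.9 CPM in PEP-/-, and after IgE DNP DEX at 63.9 and 42.4 CPM and at 61.6 and 48.4 CPM. The samples given both agents thus all lay above the 4 given antigen alone (33.1 to 40.7 CPM), a log2 change of 0.61 ± 0.15 or 1.52-fold, with an adjusted p of 0.0285 in edgeR. The difference was 0.76 within the numbered and 0.41 within the lettered samples. Without the block this call was lost on leaving out PEP+/+ IgE DNP replicate 1 or 2, PEP+/+ IgE DNP DEX replicate 1, PEP-/- IgE DNP replicate 2 or PEP-/- IgE DNP DEX replicate 1, at adjusted p of 0.0638 to 0.094, and it held in all 16 such fits with the block.

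Without antigen the rise of Fcgr3 with DEX was smaller, 0.32 ± 0.15 on the log2 scale, with an adjusted p of 0.288 in edgeR and of 0.0429 with the replicate block. That blocked call held only on leaving out PEP+/+ IgE DEX replicate 1, PEP+/+ IgE replicate 2 or PEP+/+ IgE DNP DEX replicate 1 or 2. It was lost without any 1 of the other 12 samples (adjusted p up to 0.2). Some of these 12 were given antigen and are not part of this comparison. Without 1 of those the change was 0.31 and the adjusted p 0.0542 to 0.0662 in edgeR with the block. Under DEX, the log2 change of Fcgr3 with antigen was -0.29 ± 0.15, with an adjusted p of 0.258 and of 0.0387 with the block, and 5 of the 16 blocked fits that left out a sample kept it, those without PEP+/+ IgE replicate 1 or 2, PEP+/+ IgE DEX replicate 1, PEP+/+ IgE DNP DEX replicate 1 or PEP-/- IgE DEX replicate 2. Whether DEX changed the effect of antigen was tested directly, and the difference for Fcgr3, 0.29 ± 0.22, did not pass (adjusted p = 1 in edgeR, 0.522 with the block). Leaving out PEP+/+ IgE DNP DEX replicate 2 brought it to 0.42, with an adjusted p of 0.0407 with the block.

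The alpha chain was higher with DEX, though not called by every fit. Fcer1a stood at 8046 and 8377 CPM after IgE DEX in PEP+/+ and at 7598 and 7996 CPM in PEP-/-, above all 4 samples with IgE alone (6515 to 7150 CPM). After IgE DNP DEX it stood at 12617 and 8042 CPM in PEP+/+ and at 9213 and 9757 CPM in PEP-/-, above all 4 samples with IgE DNP (6615 to 7673 CPM). The 12617 CPM of PEP+/+ IgE DNP DEX replicate 1 stands apart from its counterpart and is the highest of the 16. With antigen the log2 change was 0.48 ± 0.15, with an adjusted p of 0.0678 in edgeR, 0.0113 with the replicate block and 0.00873 in DESeq2. Leaving out PEP+/+ IgE DNP DEX replicate 1 brought the change to 0.32, and over all samples left out it ran from 0.32 to 0.64, called in all 16 of the blocked fits and in 1 of the 16 without the block. Without antigen the change of Fcer1a with DEX was 0.24 ± 0.15 and was called neither way (adjusted p = 0.472, and 0.199 with the block). Under DEX, antigen changed Fcer1a by 0.31 ± 0.15 (0.226, and 0.0812 with the block), and this passed only without PEP+/+ IgE DNP DEX replicate 2 (0.47, with adjusted p of 0.0381 and, with the block, 0.00119).

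The gamma chain was lower with DEX, and its call rested on the replicate set. Fcer1g stood at 410 and 531 CPM after IgE DEX in PEP+/+ and at 332 and 486 CPM in PEP-/-, and at 561 and 618 and at 398 and 622 CPM after IgE DNP DEX. The groups with and without DEX overlap, but within each set 7 of the 8 samples with DEX lay below their counterparts, PEP+/+ IgE DNP DEX replicate 1 being the exception. Without antigen the log2 change was -0.48 ± 0.27 (adjusted p = 0.397 in edgeR), and with the replicate block it was -0.47 ± 0.11 (0.00633, held in all 16 fits that left out a sample). With antigen it was -0.39 ± 0.27 (0.453) and -0.35 ± 0.11 with the block (0.0259). That blocked call was lost on leaving out PEP+/+ IgE DNP replicate 2, PEP+/+ IgE DNP DEX replicate 2, or any of the 4 PEP-/- samples given antigen (adjusted p up to 0.136). Under DEX, antigen changed Fcer1g by 0.32 ± 0.27 on the log2 scale (0.519), and by 0.33 ± 0.11 with the block (0.0331), a call lost on leaving out PEP+/+ IgE DNP DEX replicate 1, PEP+/+ IgE DEX replicate 2, PEP-/- IgE DEX replicate 1 or 2, or PEP-/- IgE DNP DEX replicate 2 (up to 0.144).

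**Figure D3:**
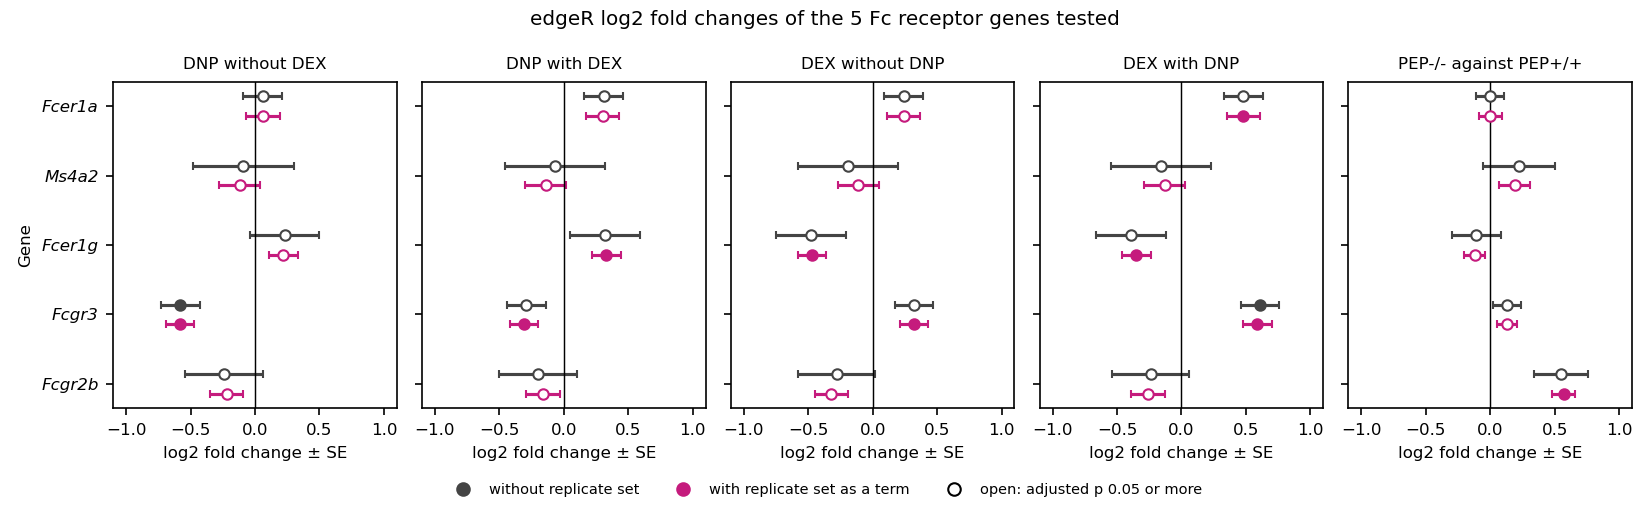
Log2 fold changes (horizontal axes) with their SE for the 5 tested receptor genes in 5 comparisons, from edgeR without the replicate set (grey) and with it as a term (magenta), filled where the adjusted p was under 0.05. Fcgr3 is filled in grey for antigen without DEX and for DEX with antigen, and the errors of Ms4a2, Fcer1g and Fcgr2b are shorter with the replicate set.

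Counted over the 5 tested genes, 0 were called for DEX without antigen, against 9.37% of all genes, and 2 with the replicate block (Fcer1g lower, Fcgr3 higher), against 26.7%. For DEX with antigen 1 was called (Fcgr3), against 10.7%, and 3 with the block (Fcer1a, Fcer1g and Fcgr3), against 33.3%. For antigen under DEX 0 were called, against 12.6%, and 2 with the block (Fcer1g and Fcgr3), against 37.6%. With 5 genes, shares this coarse cannot be set apart from those over all genes. At an unadjusted p under 0.05 there were 0 of the 5 genes for DEX without antigen and 0 for antigen under DEX in edgeR, and DESeq2 also called 0 in both. The medians over the 5 genes were -0.19, -0.16 and -0.07 on the log2 scale in these 3 comparisons, against 0.00, -0.01 and -0.02 over all genes. The interaction of DNP and DEX was called for 0 of the 5 genes (0 at an unadjusted p under 0.05, and 0 called in DESeq2), and for 0.331% of all genes or 1.57% with the block.

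The beta chain was called in no comparison. Ms4a2 stood at 861 and 449 CPM after IgE, 839 and 344 after IgE DNP, 660 and 549 after IgE DEX and 585 and 426 after IgE DNP DEX in PEP+/+. In PEP-/- the values were 968 and 509, 964 and 472, 698 and 530, and 960 and 381 CPM in the same order. In each condition the numbered sample lay above the lettered one, and the treatments overlap. With the replicate block its smallest adjusted p in edgeR was 0.269, for the genotype.

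The inhibitory receptor Fcgr2b was the receptor gene with the largest difference between the genotypes, called with the replicate block. In PEP+/+ it stood at 42.8 and 65.3 CPM after IgE, 38.2 and 52.3 after IgE DNP, 26.4 and 60.4 after IgE DEX and 32.3 and 50.5 after IgE DNP DEX. In PEP-/- the values were 68.7 and 91.4, 64.4 and 73.4, 49.5 and 86.4, and 43.4 and 65.0 CPM in the same order. Each of the 8 PEP-/- samples lay above the PEP+/+ sample of its treatment and set, although the groups as a whole overlap. Averaged over the treatments the log2 difference was 0.55 ± 0.21, with an adjusted p of 0.243 in edgeR, and 0.57 ± 0.09 or 1.48-fold with the replicate block (adjusted p = 0.000845). The blocked call held on leaving out any of the 16 samples (0.50 to 0.66), and the difference was 0.69 within the numbered and 0.46 within the lettered samples. The fit treats the 8 samples of a genotype as independent, although they come from only 2 replicate sets. Leaving out 1 sample never leaves out a set. The p-values of this and the other genotype tests therefore do not measure the spread between separate cultures or mice of a genotype. Without the block 0 of the 5 genes were called between the genotypes (1 at an unadjusted p under 0.05, Fcgr2b, and 0 called in DESeq2), against 1.59% of all genes, and with it 1 was, against 17.4%. Fcer1a (-0.00 ± 0.11), Fcer1g (-0.11 ± 0.19), Fcgr3 (0.13 ± 0.11) and Ms4a2 (0.22 ± 0.28) were not called either way.

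Markers of monocytes and macrophages, which carry these IgG receptors too, moved beside some of these values. The 13 markers summed to 110 to 501 CPM in PEP+/+ and 209 to 890 CPM in PEP-/-, and to 149 to 327 CPM after IgE, 110 to 254 after IgE DNP, 384 to 890 after IgE DEX and 321 to 638 after IgE DNP DEX. Most of the sum was the chemokine receptor Cx3cr1, which rose with DEX (log2 changes of 1.64 and 1.81 without and with antigen) and was higher in PEP-/- (0.76, adjusted p = 0.0278 in edgeR). Without Cx3cr1 the other 12 summed to 29.5 to 55 CPM in PEP+/+ and 34.4 to 102 CPM in PEP-/-, and to 29.5 to 53.5 CPM after IgE DEX against 39.4 to 102 CPM after IgE. With the replicate block, 4 of the 7 markers tested were higher in PEP-/- (Ccr2, Cd68, Cx3cr1 and Lyz2) and 0 lower. Over all genes, the block called 17.4% for the genotype. Without the block 1 of the 7 (Cx3cr1) was higher and 0 lower, against 1.59% of all genes. Of the 13 markers, Adgre1 (1.05 to 6.38 CPM), Lyz2 (3.12 to 11 CPM), Cd68 (8.74 to 43.3 CPM), Ccr2, Cd14 and Cx3cr1 had reads in all 16 samples, whereas C1qa had 0 reads in all 16 samples, Mrc1 in 15 and Mertk in 14, and Csf1r, C1qb and Ly6c2 each reached at most 1.17 CPM. The part of such cells in the levels of Fcgr2b and Fcgr3 was not tested.

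No interaction of genotype with treatment was called for any receptor gene. For the effect of antigen in PEP-/- against PEP+/+, the differences on the log2 scale ran from -0.06 ± 0.31 for Fcgr3 to 0.11 ± 0.78 for Ms4a2, and for the effect of DEX from -0.20 ± 0.39 for Fcer1g to -0.01 ± 0.55 for Ms4a2. Over all genes, 0% were called in either interaction, with or without the block. At an unadjusted p under 0.05 there were 30 and 113 genes in edgeR for antigen and DEX, 143 and 644 with the block, and 22 and 136 in DESeq2, which called 0 of them as well. The standard errors show how wide a difference could have gone unseen.

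The ratio of 2 receptor genes within a sample does not depend on the scaling of libraries and was compared between samples of the same set, genotype and other treatment, 8 pairs for each factor. These ratios were chosen after the values had been seen, and 15 such differences were tested by an exact two-sided sign-flip test. The smallest p that 8 pairs allow is 0.00781. The test treats the 8 pairs as independent, although they come from only 2 replicate sets whose samples deviated together. Its p-values therefore do not measure the spread between separate cultures or mice of a genotype. The gamma to alpha ratio (Fcer1g to Fcer1a) was 0.0639 to 0.114 after IgE, 0.0726 to 0.14 after IgE DNP, 0.0437 to 0.0634 after IgE DEX and 0.0432 to 0.0769 after IgE DNP DEX. It was lower with DEX in 8 of 8 pairs, by 0.76 ± 0.16 on the log2 scale on average (SD, n = 8; exact p = 0.00781, adjusted 0.0293), and lower in PEP-/- in 8 of 8 pairs, by 0.12 ± 0.10 (the same p-values). It did not differ measurably with antigen (0.09 ± 0.16, higher in 6 of 8 pairs, exact p = 0.18, adjusted 0.245).

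The balance of inhibitory to activating low-affinity IgG receptor differed with DEX and with genotype. In PEP+/+ the ratio of Fcgr2b to Fcgr3 reads was 0.882 and 1.33 after IgE, 1.14 and 1.58 after IgE DNP, 0.413 and 0.908 after IgE DEX and 0.505 and 1.19 after IgE DNP DEX. In PEP-/- it was 1.16 and 1.63, 1.58 and 2.1, 0.654 and 1.47, and 0.704 and 1.34 in the same order. The ratio was lower with DEX in 8 of 8 pairs (-0.75 ± 0.38 on the log2 scale, exact p = 0.00781, adjusted 0.0293) and higher in PEP-/- in 8 of 8 (0.45 ± 0.17, the same p-values). With antigen it was higher in 7 of 8 pairs (0.26 ± 0.19, exact p = 0.0234), which did not pass after adjustment (0.0502). The ratio of the beta to the alpha chain (Ms4a2 to Fcer1a) was lower with DEX in 7 of 8 pairs (-0.48 ± 0.46, exact p = 0.0156, adjusted 0.0391). With antigen the beta to alpha ratio was lower in 7 of 8 pairs as well (-0.31 ± 0.34, exact p = 0.0391), which did not pass after adjustment (0.0586).

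These ratios rest on the pairing. In an exact permutation test without pairs, the gamma to alpha ratio with DEX was the 1 of them that passed (adjusted p = 0.0326), and the others had adjusted p of 0.0847 (Fcgr2b to Fcgr3, DEX), 0.339 (Fcgr2b to Fcgr3, genotype), 0.826 (Fcer1g to Fcer1a, genotype) and 0.211 (Ms4a2 to Fcer1a, DEX). Leaving out any sample left 7 pairs, which allow an exact p of 0.0156 at the least, and no mean of these ratios changed sign. The gamma to alpha and Fcgr2b to Fcgr3 differences with DEX and genotype kept that smallest p whichever sample was left out. Their adjusted p missed the threshold (0.0586, exact test) on leaving out some samples and passed on leaving out the other 8. It depended on how many of the 15 tests reached the smallest p, so it does not show which samples these differences rest on. With 1 sample left out, the beta to alpha difference with DEX passed only without PEP+/+ IgE DNP replicate 2 or PEP+/+ IgE DNP DEX replicate 2 (adjusted p up to 0.0781, exact test).

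**Figure D4:**
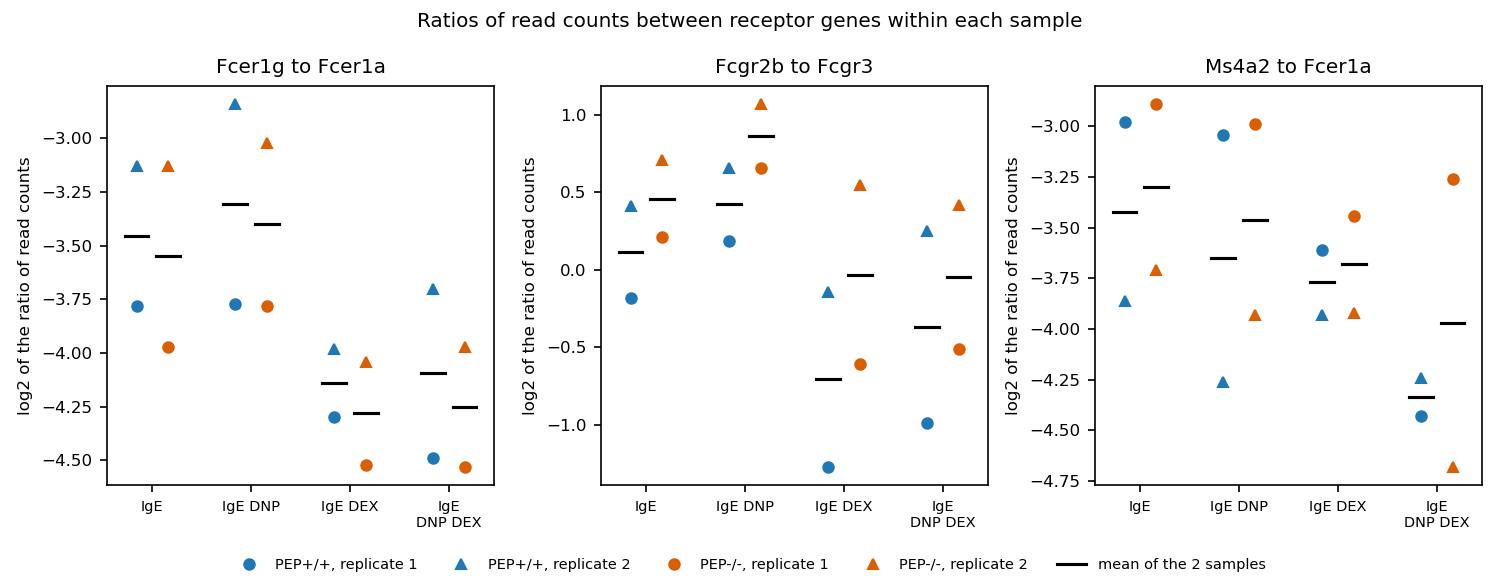
Log2 ratios of read counts between 2 receptor genes in the same sample (vertical axes), by treatment, with 1 point per sample, colour for the genotype, circles for replicate 1, triangles for replicate 2 and a bar at the mean of the 2 samples. The gamma to alpha and the Fcgr2b to Fcgr3 ratios lie lower in the DEX groups, and the lettered samples lie above the numbered ones in both.

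Fcgr1 and Fcgr4, the high-affinity IgG receptor and the receptor for IgG2a and IgG2b, were near the limit of detection. Fcgr1 had 53 reads in all, 0 to 8 per sample, in 13 of the 16 samples. It had 20 reads in the 8 samples with DEX (exact 95% Poisson interval 12.2 to 30.9) against 33 in those without (22.7 to 46.3), and 15 with antigen (8.4 to 24.7) against 38 without (26.9 to 52.2). Its CPM was lower with DEX in 7 of 8 pairs and equal in the other (-0.15 ± 0.15 CPM, exact p = 0.0156, adjusted 0.0391), and lower with antigen in 7 of 8 pairs (-0.16 ± 0.20 CPM, exact p = 0.0312, adjusted 0.0521). Without pairs the difference with DEX did not pass (exact permutation test, adjusted p = 0.152), and when a sample was left out the paired difference passed only without PEP+/+ IgE DNP replicate 1 or PEP+/+ IgE DNP DEX replicate 1 (adjusted p up to 0.0781).

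Fcgr4 reads occurred only in samples with DEX. There were 11 reads in 6 of the 8 DEX samples, 1 or 2 in each, and 0 in the 8 samples without DEX, over which a count of 0 allows up to 0.0285 CPM (3 reads). Its pooled level was 0.0955 CPM with DEX (exact 95% Poisson interval 0.0477 to 0.171 CPM, from 5.49 to 19.7 reads) and 0 CPM without it, where the interval reached 0.035 CPM or 3.69 reads. By pairs the level was higher with DEX in 6 of 8 and equal in the others (0.11 ± 0.09 CPM, exact p = 0.0312), which did not pass after adjustment (0.0521). These intervals cover counting error only, and the reads carry no molecular identifiers.

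**Figure D5:**
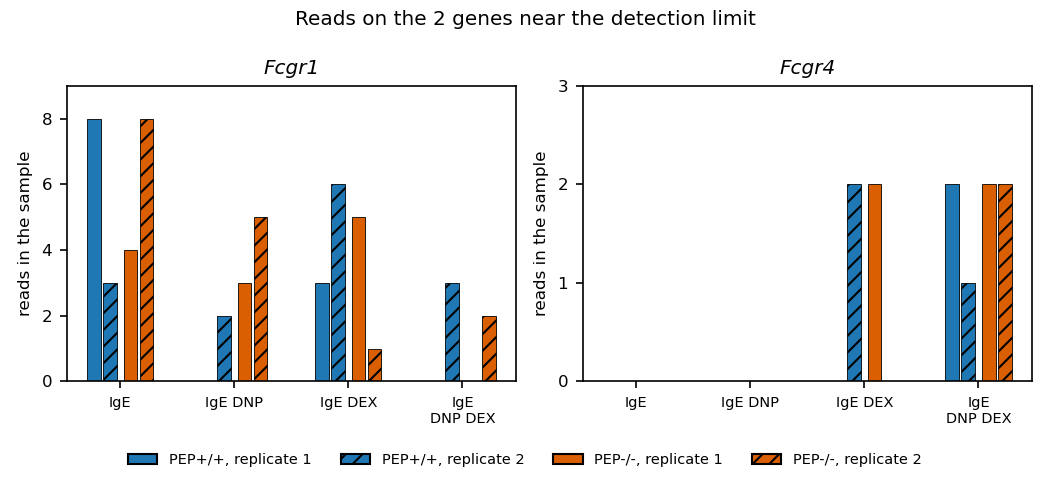
Reads counted on Fcgr1 and Fcgr4 in each sample (bars, vertical axes from 0) by treatment, coloured by genotype and hatched for replicate 2, with no bar where a sample had 0 reads. Fcgr4 had at most 2 reads in a sample and none without DEX.

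Genes that act downstream of FcεRI moved in both directions. With antigen and no DEX, 6 of 30 such genes rose and 5 fell (8 and 7 with the replicate block), against 16.7% of all genes called (37.9% with the block). Rabgef1, which encodes a Rab5 exchange factor that restrains FcεRI signalling, rose from 26.4 to 32.4 CPM after IgE to 283 to 361 CPM after IgE DNP (log2 change 3.43 ± 0.13, adjusted p = 7.33e-08 in edgeR). The adaptor Lcp2 (1.18) rose as well, and the phosphoinositide 3-kinase subunit Pik3cd fell (-1.15). Of the 2 kinases next to the receptor, singled out after their values were seen, Lyn rose (0.41 ± 0.10) and Syk fell (-0.46 ± 0.13). Under DEX, antigen raised 8 and lowered 3 of the 30, against 12.6% of all genes, and with the block raised 9 and lowered 11, against 37.6%. Those raised without the block included Rabgef1 (2.56), the kinase Tec (1.48) and Lcp2 (1.13).

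Dexamethasone alone raised 6 of these 30 genes and lowered 4, against 9.37% of all genes, and with the block raised 9 and lowered 6, against 26.7%. Fgr, a kinase of the family of Lyn, had 0 reads in the 8 samples without DEX, 30 to 154 after IgE DEX and 14 to 66 after IgE DNP DEX. The regulatory subunit Pik3r1 (1.31) and the ubiquitin ligase Cblb (1.19) rose too, and Lyn, again singled out after its values were seen, rose by 1.01 ± 0.10. With antigen present, DEX raised 6 and lowered 3, against 10.7% of all genes, and with the block raised 9 and lowered 5, against 33.3%. Those raised included Fgr, Pik3r1 (1.42) and Cblb (1.15). The medians over the 30 genes were -0.02 for antigen, 0.04 for DEX, -0.05 for DEX with antigen and -0.25 for antigen under DEX, against -0.00, 0.00, -0.01 and -0.02 over all genes. Between the genotypes 0 of the 30 were called, against 1.59% of all genes, and with the block 3 were higher in PEP-/- and 0 lower (Cblb, Grap2 and Inpp5d), against 17.4%. Inpp5d encodes SHIP-1, the partner of FcγRIIB, and differed by 0.32 ± 0.08 on the log2 scale (adjusted p = 0.0158 with the block, 0.221 without).

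Of 19 transcription factors linked to mast cell receptor promoters, 3 rose with antigen and 2 fell, against 16.7% of all genes called, and with the replicate block 4 rose and 8 fell, against 37.9%. Ets1 rose by 2.46 ± 0.46, Stat5a by 0.70 and Spi1, which encodes PU.1, by 0.67 on the log2 scale, and Lmo2 changed by -0.75. DEX raised 0 of the 19 and lowered 2 without antigen (Runx1, -0.96, and Lmo2, -0.73), against 9.37% of all genes. With antigen it raised 0 and lowered 1 (Runx1, -0.88), against 10.7%. With the block, DEX raised 3 and lowered 2 without antigen, against 26.7%, and raised 5 and lowered 3 with it, against 33.3%. Antigen under DEX raised Ets1 (1.85) and lowered Stat5b (-0.66), against 12.6%, and with the block raised 3 and lowered 4, against 37.6%. The medians over the 19 were -0.12, 0.04, 0.01 and -0.07 for antigen, DEX, DEX with antigen and antigen under DEX. Gata1, the GATA factor of the erythroid and mast cell lineages, stood at 130 to 160 CPM after IgE, 82.6 to 117 after IgE DNP, 152 to 203 after IgE DEX and 119 to 189 after IgE DNP DEX. Its log2 change with antigen was -0.55 ± 0.19 (adjusted p = 0.0696 in edgeR) and -0.55 ± 0.08 with the replicate block (8.07e-05), beside the fall of Fcgr3, and a part of Gata1 in that fall was not tested. Gata2 was called in none of these comparisons, and between the genotypes 0 of the 19 were called, against 1.59% of all genes. With the block 5 were higher in PEP-/- and 0 lower, against 17.4%.

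Some other genes that bind immunoglobulin or share the gamma chain passed the filter as well. Over all genes, 16.7% were called for antigen, 9.37% for DEX, 10.7% for DEX with antigen and 12.6% for antigen under DEX. For the genotype 1.59% were called. With the replicate block the shares were 37.9, 26.7, 33.3, 37.6 and 17.4%, in the same order. Lists of 3 to 6 tested genes are too short to set their counts apart from these shares. Of 12 further Fc and immunoglobulin-binding genes, 4 passed the filter, and with antigen the IgE-binding lectin Lgals3 rose by 1.69 ± 0.28 and the cytosolic antibody receptor Trim21 changed by -1.28 ± 0.13 on the log2 scale. Under DEX the values with antigen were 1.26 for Lgals3 and -0.49 for Trim21, and without the block 0 of the 4 were called with DEX or between the genotypes. With the block, 1 of the 4 was higher and 2 lower with DEX, 1 was higher with DEX when antigen was present, and 1 was higher in PEP-/-. Of 12 partners of the gamma chain or of its relative DAP12, 6 were tested, and antigen raised Clec4d (1.62) and Pira2 (0.64) without DEX, and Clec4d (1.96) and Clec4e (2.09) under it. Clec4e was also higher with DEX when antigen was present (2.06). With the block, antigen raised 3 of the 6 without DEX and 4 under it, DEX raised 2 and lowered 2 with antigen, and 1 was higher in PEP-/-. Of 11 relatives of Ms4a2 in the MS4A family, 3 were tested and Ms4a3 alone was called without the block, with DEX and antigen (1.09). With the block, 1 of the 3 was lower with antigen, 1 was lower with DEX, 2 were higher with DEX when antigen was present, and 1 was higher in PEP-/-. For antigen, DEX, DEX with antigen and antigen under DEX, in this order, the median log2 changes were 0.36, -0.45, 0.15 and 0.78 over the 4 Fc genes, 0.72, 0.12, 0.25 and 0.44 over the 6 partners, and -0.56, 0.17, 0.66 and 0.24 over the 3 MS4A genes.

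The genes whose log2 CPM followed each receptor gene most closely over the 16 samples are given as a description, since the samples share treatments and the 2 sets, and 9613 genes were searched. For Fcer1a they were Ap1s1 (Pearson's r = 0.921), Rplp0 (0.916) and Rps6 (0.913). For Ms4a2 they were Gabpa (0.972) and Tm9sf2 (0.958), and for Fcer1g they were Anapc2 (0.965), Atpif1 (0.952) and Fam162a (0.951). For Fcgr3 they were Ptcd1 (0.946), Oxa1l (0.941) and Pxmp4 (0.937), and for Fcgr2b they were Cox6b2 (0.921), Dnaaf3 (0.917) and Pcdhgc4 (0.902). None of the genes named here is another receptor gene of this group. With each set centred on its own mean, only Gabpa and Tm9sf2 remained among the 3 closest for Ms4a2, and the closest became Selenof (0.968) for Fcer1a and Tmsb10 (0.972) for Fcer1g.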

How the data were processed

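RNA of 16 BMMC samples (8 conditions, 2 replicates each) was sequenced from a stranded mRNA library kit. The authors deposited unnormalised counts of reads per Ensembl gene for each sample, made per the labels and the study's methods with bcl2fastq, TopHat2 and HTSeq on GRCm38. Reads that mapped to several places were not counted on genes (21.45 to 37.76% of each sample's table). A further 4.69 to 10.98% fell on no gene and 1.9 to 2.5% on more than 1 gene. The levels of genes that share long stretches of sequence may thus be too low. GENCODE M21 named 37607 of the 39179 gene IDs.

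The counts were tested with edgeR 4.0.16 (R 4.3.3, limma 3.58.1) by its quasi-likelihood test on all 16 samples with 8 condition means, TMM scaling, filterByExpr at a minimum count of 10, and Benjamini-Hochberg adjustment over 13305 genes at 0.05. Treatment effects are averages over both genotypes, and the scripts were tested on simulated data. CPM are reads per 1000000 reads on genes, scaled by TMM, and log2 CPM for correlations used a prior count of 2. Numbered samples are replicate 1 and lettered samples replicate 2. The deviations of same-set samples from their condition means correlated in all 28 pairs of conditions (0.453 to 0.799, median 0.718), so the numbers pair the samples and the fit with the set as a term (the replicate block) is given where it changed a call. The typical variation between replicates (biological coefficient of variation) was 0.312 without the set and 0.133 with it. Replicates differed by more than counting noise in each condition.

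The receptor genes and the gene lists were chosen with earlier results of these data known. All 7 receptor genes are named, with the 3 genes of highest Pearson's r over 16 samples per tested receptor gene (mean CPM of at least 5), up to 4 called genes of largest change per list and comparison, and Ptpn22, Tsc22d3 and Tnf, except that a few genes this rule picked are not reported here. Lyn, Syk, Gata1, Gata2 and Inpp5d and the cell type markers named lie partly outside that rule and were named after their values were seen. DESeq2 1.42.0, its size factors, no filter, leaving out samples, each genotype alone and only the conditions compared were tried as alternatives. The ratios with their exact sign-flip tests, and the block combined with leaving out samples, were added after seeing the data. Promoters are from RefSeq on GRCm38.p6.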

Additional observations from a re-analysis of the deposited data

How the results depend on the processing

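The replicate set was the choice that moved most. With the replicate block, genes called came to 5042 (2216 without it) for antigen, 3548 (1247) for DEX, 4429 (1418) for DEX with antigen, 5007 (1678) for antigen under DEX, 2310 (212) for the genotype and 209 (44) for the interaction of antigen and DEX. Receptor genes called with the replicate block came to 2 for DEX, 3 for DEX with antigen, 2 for antigen under DEX and 1 for the genotype, and the block changed no other call of a receptor gene. Within PEP+/+ alone the genes called were 785, 423, 403 and 511 and within PEP-/- alone 960, 445, 436 and 530, in the order of the 4 treatment comparisons, and Fcgr3 was called in neither genotype alone (0 receptor genes for antigen and for DEX with antigen). With only the conditions compared, 805 genes were called for DEX with antigen (0 receptor genes) and 953 for antigen under DEX. DESeq2 called 683 genes for the genotype, 101 for the interaction of antigen and DEX, and 2 receptor genes (Fcer1a and Fcgr3) for DEX with antigen. Without a filter, 472 genes were called for the genotype (1 receptor gene, Fcgr2b), 107 for antigen and DEX, 3 and 18 for the genotype with antigen and with DEX, and 0 receptor genes for antigen.

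Leaving out 1 sample gave 1390 to 2251 genes for antigen, 852 to 1317 for DEX with antigen, 927 to 1604 for antigen under DEX, 57 to 203 for the genotype and 12 to 27 for the interaction of antigen and DEX. Receptor genes called then numbered 0 to 1 for antigen (1 to 2 with the block), 0 to 2 for DEX with antigen (2 to 3 with the block), 0 to 1 for antigen under DEX (0 to 2 with the block), 0 for DEX and for the genotype (1 to 2 with the block in both) and 0 for the interaction of antigen and DEX (0 to 2 with the block). Without PEP+/+ IgE DNP DEX replicate 2 the block also called Fcer1g for antigen (0.21) and for the genotype (-0.18) and the interaction for Fcer1a (0.41), without its replicate 1 Fcgr3 for the genotype (0.19), and without PEP+/+ IgE DEX replicate 2 Fcgr2b for DEX (-0.50). Without pairs the ratios that no longer passed were Fcgr2b to Fcgr3 with DEX (-0.75) and genotype (0.45), Fcer1g to Fcer1a with genotype (-0.12), Ms4a2 to Fcer1a with DEX (-0.48) and the CPM of Fcgr1 with DEX (-0.15). With 1 sample left out these ran from -0.84 to -0.69, 0.41 to 0.49, -0.14 to -0.10, -0.55 to -0.35 and -0.17 to -0.11. The other mean ratios ran from -0.80 to -0.73 (Fcer1g to Fcer1a, DEX), 0.24 to 0.32 (Fcgr2b to Fcgr3, antigen), -0.38 to -0.24 and 0.05 to 0.28 (Ms4a2 to Fcer1a, antigen and genotype), and CPM differences from -0.20 to -0.10 (Fcgr1, antigen), -0.02 to 0.05 and -0.01 to 0.02 (Fcgr1 and Fcgr4, genotype).

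Signs turned only for log2 changes that had not been called. Leaving out 1 sample gave, without the block and then with it, for Ms4a2 -0.49 to 0.18 and -0.28 to -0.01 (antigen), -0.39 to 0.09 and -0.27 to 0.05 (DEX), -0.55 to 0.24 and -0.27 to 0.03 (DEX with antigen), -0.45 to 0.21 and -0.29 to 0.03 (antigen under DEX), -0.35 to 0.45 and -0.17 to 0.16 (antigen by DEX), -0.47 to 0.92 and -0.07 to 0.46 (genotype by antigen) and -0.44 to 0.27 and -0.27 to 0.07 (genotype by DEX). For Fcer1g they were -0.03 to 0.43 and 0.12 to 0.29 (antigen), -0.21 to 0.02 and -0.18 to -0.06 (genotype), -0.11 to 0.37 and 0.01 to 0.26 (antigen by DEX), -0.29 to 0.57 and -0.05 to 0.28 (genotype by antigen) and -0.46 to 0.00 and -0.37 to -0.12 (genotype by DEX). For Fcgr2b they were -0.43 to 0.16 and -0.31 to 0.02 (antigen under DEX), -0.20 to 0.40 and -0.09 to 0.24 (antigen by DEX), -0.29 to 0.32 and -0.18 to 0.32 (genotype by antigen) and -0.31 to 0.28 and -0.22 to 0.11 (genotype by DEX). For Fcgr3 they were -0.14 to 0.09 and -0.18 to 0.07 (genotype by antigen, 0.06 with the block and without PEP+/+ IgE replicate 1), and for Fcer1a -0.08 to 0.08 and -0.07 to 0.08 (genotype). The genotype difference of Fcer1a was 0.01 in DESeq2, 0.01 with its size factors and 0.00 with the block, Ms4a2 for antigen under DEX was 0.13 within PEP-/- alone, and Ms4a2 for antigen by DEX was -0.02 with the block. The causes of these differences were not tested, and depth limits Fcgr1 and Fcgr4 alone, which had at most 8 reads in a sample.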
